A study of Homo sapiens with 6 samples.

Results

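Expression of 8 genes for surface targets and immune ligands was followed in Kelly cells, an established human neuroblastoma line, after depletion of METTL3. The genes were CD276, GPC2, DLK1, SSTR2, CD47, PVR, NECTIN2 and CD274, chosen by symbol as antigens or ligands of interest for neuroblastoma therapy. All 8 were among the 19923 protein-coding genes of the count tables. Their measured change was not used to choose them, although earlier results of these data were known when the list was drawn up.

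The proteins of these genes sit at the cell surface, where antibodies, radioligands, engineered T cells or immune receptors can reach them. CD276 (B7-H3) and CD274 (PD-L1) are members of the B7 family of immune ligands, and CD274 inhibits T cells through the receptor PD-1. CD47 inhibits phagocytosis through SIRPA on macrophages. PVR and NECTIN2 are related adhesion proteins that bind the activating receptor CD226 and the inhibitory receptor TIGIT on T and natural killer cells. GPC2 is a glypican, a heparan sulfate proteoglycan held by a lipid anchor, DLK1 is a transmembrane protein with EGF-like repeats, and SSTR2 is the somatostatin receptor bound by radiolabelled somatostatin analogues. METTL3 is the catalytic subunit of the enzyme that writes N6-methyladenosine (m6A) in mRNA.

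RNA-seq data of these groups were collected from Kelly cells, whose labels give MYCN amplification and a wild-type genotype. RNAiMAX was used to transfect both groups, and poly(A) RNA was sequenced 72 hours later. The first group had received siControl, the control siRNA, and the other siMETTL3, which targets METTL3; each has 3 libraries. The file headers call the second siRNA siMettl3B and add SAC-input to each library's name, a term that the labels do not explain. Neither its sequence nor a second METTL3 siRNA was analysed here, and nothing states that the libraries of a group came from separate cultures, so p-values measure the spread between these libraries only. Only RNA was measured, not protein at the cell surface. In such bulk samples, fewer cells that express a gene and less RNA per cell cannot be told apart.

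Total counts were 15430000 to 21526555 in siControl and 20374737 to 21565013 in siMETTL3. Levels are given as CPM, which are counts scaled to a common library size with TMM. Between libraries of a group, the correlation of log2 CPM across genes was 0.993 to 0.994 in siMETTL3 and 0.986 to 0.992 in siControl. The shallowest library, siControl replicate 3, stood somewhat apart. Values without it are given for some, not all, of the genes for which it lay far from its group. METTL3 had 52.8 to 56.2 CPM in siControl and 31.8 to 34.3 CPM in siMETTL3, so that 61.0% of its control level remained (edgeR FDR 4.68e-06). Part of the METTL3 span, 7.9%, is shared with TOX4, and how many counts come from there was not tested. Reads in introns were counted as well, and the share of mature METTL3 mRNA that remained was not measured apart from them. All 10 neuroblastoma markers listed, such as DBH, were expressed (summed level 6176 to 6623 CPM in siControl and 8824 to 9389 CPM in siMETTL3). Of 8 immune cell markers, summed at 2.80 to 3.34 CPM in siControl and 2.04 to 2.77 CPM in siMETTL3, CD68 alone was counted highly enough to be tested. The defining leukocyte gene PTPRC had at most 8 counts in a library.

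DLK1, SSTR2 and NECTIN2 rose after METTL3 depletion, CD47 fell, and CD276, GPC2, PVR and CD274 did not pass the test. All 8 genes were counted highly enough for the test, which was edgeR's quasi-likelihood test with Benjamini-Hochberg adjustment (FDR, threshold 0.05) over 15311 genes. With 4 of 8 called, the genes are to be read against the background of this comparison, in which 37.8% of all tested genes were called, 18.6% of them all as higher and 19.2% as lower. The median log2 fold change of the 8 genes was 0.0053, beside -0.0021 for all tested genes. In 5 of the 8 genes the libraries of the groups did not overlap, where 49.9% of all tested genes showed this. The 4 calls held, with the same direction, in all 16 other fits that were made.

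**Figure D1:**
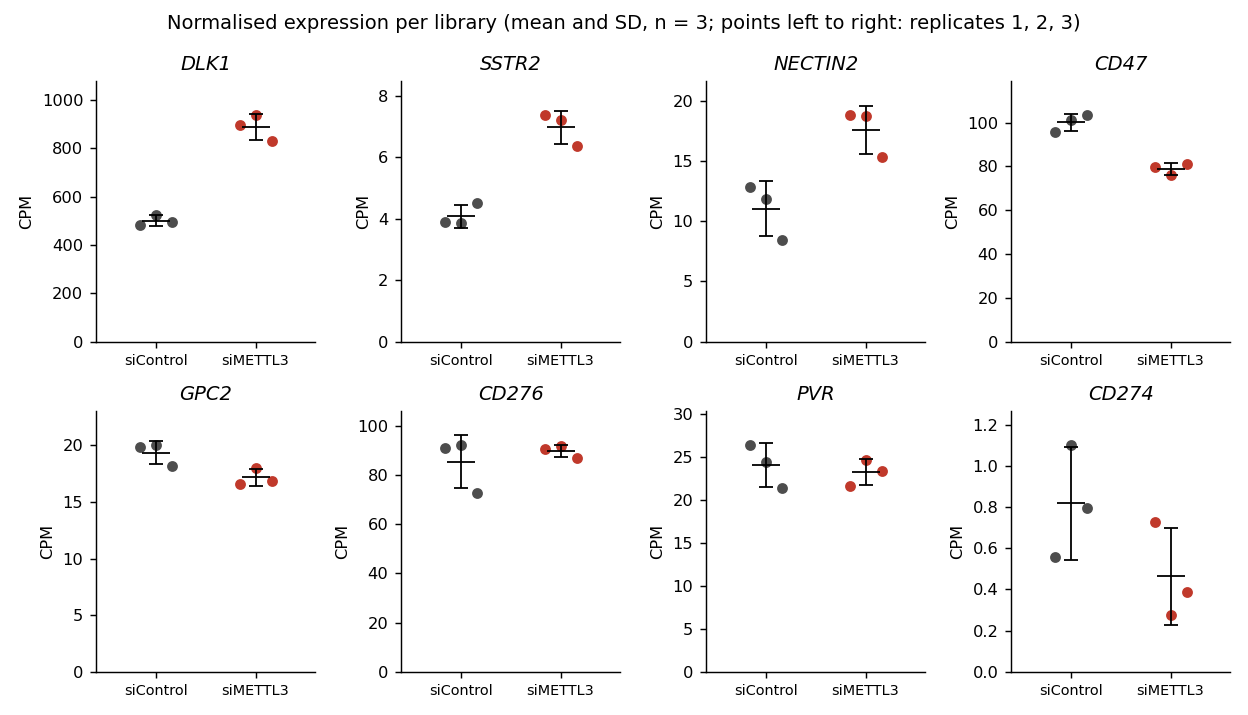
Normalised expression (CPM, vertical axes from 0) of each gene in the 3 siControl and 3 siMETTL3 libraries, with mean and SD. The points of DLK1, SSTR2 and NECTIN2 lie higher and those of CD47 and GPC2 lower in siMETTL3, while those of CD276, PVR and CD274 overlap.

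**Figure D2:**
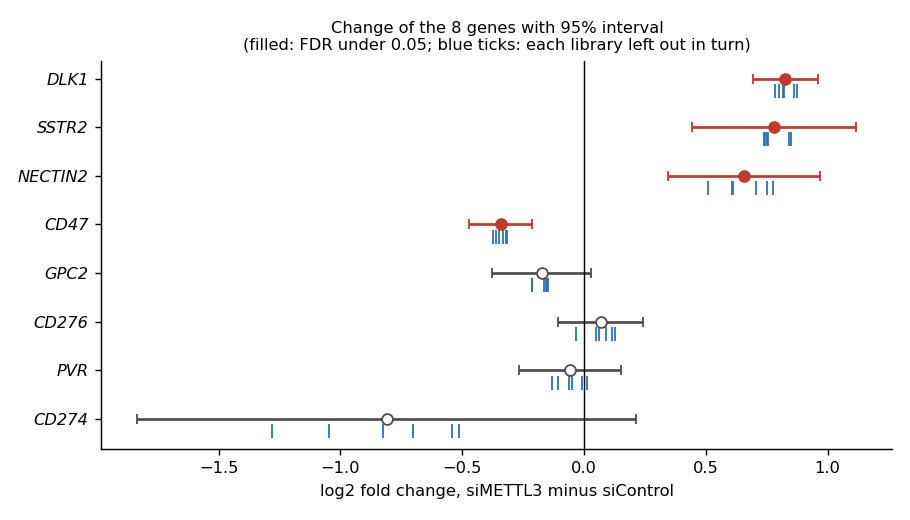
Log2 fold change of each gene, siMETTL3 minus siControl (horizontal axis), with its 95% interval; filled points have an FDR under 0.05 and blue ticks give the value when each library was left out. The ticks of DLK1, SSTR2, NECTIN2 and CD47 stay on their side of 0, and those of CD276 and PVR lie on both sides.

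DLK1 had the highest level of the 8 genes and the smallest FDR. The gene (chr14:100725705-100738224, plus strand) is paternally expressed and imprinted, and it marks neuroendocrine and neuroblastoma cells. It was measured at 482, 525 and 493 CPM in siControl replicates 1 to 3 and at 895, 937 and 828 CPM in the siMETTL3 replicates. The lowest siMETTL3 library thus stood far above the highest siControl library. The mean rose from 500.1 ± 22.2 to 887 ± 54.9 CPM (SD, n = 3), or 1.77-fold (log2 fold change 0.83, SE 0.063, edgeR FDR 5.03e-07).

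The other genes of the DLK1 locus in the tables moved the same way. DLK1 lies in an imprinted domain with RTL1, a retrotransposon-derived gene, and DIO3, a thyroid hormone deiodinase, which are expressed from the paternal allele as well. RTL1, 142 kb from DLK1, had 133, 148 and 107 CPM in siControl and 276, 279 and 257 CPM in siMETTL3. RTL1 thus rose by 1.06 on the log2 scale (SE 0.096, edgeR FDR 9.66e-06), and by 0.95 without siControl replicate 3. DIO3, 823 kb away, was low, at 0.834, 1.20 and 1.59 CPM in siControl and 2.04, 2.66 and 2.53 CPM in siMETTL3. Its groups did not overlap, and it rose by 1.03 on the log2 scale (SE 0.29, edgeR FDR 0.0138), a call that was lost on leaving out siMETTL3 replicate 2 (edgeR FDR 0.0602). None of the 3 overlaps another gene of the tables, but strand was not used in counting, so antisense RNA of this locus cannot be told apart from RTL1.

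DLK1 is related to the Notch ligands, and most listed genes of that pathway did not pass the test. Of the 10 tested genes in a list of locus and Notch partners, 2 rose (RTL1 and DIO3), 1 fell and 7 did not pass the test, with a median log2 fold change of 0.032. The share called was 30%, beside 37.8% of all tested genes. Without siControl replicate 3 the lower calls were 3, and without siMETTL3 replicate 2 the higher call was 1. The ligand genes DLL1 and JAG2 had log2 fold changes of 0.57 and 0.25 (edgeR FDR 0.0646 and 0.0935). The gene that fell was the receptor NOTCH3, at 34.1 ± 0.327 CPM in siControl and 17.4 ± 0.647 CPM in siMETTL3 (SD, n = 3), which is -0.97 on the log2 scale (edgeR FDR 1.32e-06). ADAM17, a protease that releases surface proteins including DLK1, did not pass (log2 fold change -0.16, edgeR FDR 0.0503).

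Because m6A is written at adenosines in a short sequence context, the most frequent core of that context, GGACT in the DNA alphabet, was looked for in the canonical transcript of each gene (GENCODE release 44, GRCh38, transcript strand only). DLK1 holds 3 of these, NECTIN2 3, CD47 5 and SSTR2 12, and 88.5% of all genes hold at least 1. The copies in the coding sequence are shown for the genes that changed and have any, with 10 bases on either side, the motif in capitals, and the coordinates of the motif. They are only part of the places where METTL3 could act by sequence alone. Copies outside the coding sequence are not shown, and other forms of the context were not searched. Methylation was not measured at these sites.
DLK1 at chr14:100729000-100729004 (+): ctgccttcacGGACTctgtggagaa
DLK1 at chr14:100732145-100732149 (+): actcgggaaaGGACTgccagaaaaa
NECTIN2 at chr19:44865366-44865370 (+): acctgttcctGGACTgtacatctcc
NECTIN2 at chr19:44871974-44871978 (+): tctcatccctGGACTgggaagccaa
CD47 at chr3:108060792-108060796 (-): acttgttgctGGACTagtgatcact
CD47 at chr3:108058354-108058358 (-): cgctgtggttGGACTgagtctctgt
CD47 at chr3:108057497-108057501 (-): acaattacttGGACTagtttatatg

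The genes that rose held the motif at densities both below and above that of the gene that fell. The density was 0.644 per kb in DLK1, 1.12 per kb in NECTIN2 and 1.56 per kb in SSTR2, which rose, and 0.945 per kb in CD47, which fell. GPC2 held 1.57 per kb, CD276 1.21, PVR 1.04 and CD274 0.55, and the median of 18962 genes was 0.923 per kb. All 12 copies in SSTR2 and all 4 in CD276 lie after the coding sequence. Within 200 bases of the stop codon, where m6A is known to be frequent, CD47, PVR and CD274 each hold 2 copies and GPC2 holds 1. Of all genes, 35.6% hold at least 1 copy there.

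SSTR2 rose from a low level. Its gene (chr17:73165010-73176633, plus strand) encodes the receptor used for imaging and radioligand therapy of neuroendocrine tumours. It had 3.89, 3.85 and 4.51 CPM in siControl, from 68 to 84 counts, and 7.38, 7.21 and 6.38 CPM in siMETTL3, from 131 to 157 counts. Every siMETTL3 library was above every siControl library. The rise was 1.72-fold (log2 fold change 0.78, SE 0.16, edgeR FDR 0.00148).

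The peptide somatostatin and another of its receptors rose as well. SSTR3 had 0.463, 0.800 and 0.663 CPM in siControl (10 to 16 counts) and 1.99, 4.13 and 3.16 CPM in siMETTL3 (41 to 90 counts). It rose by 2.27 on the log2 scale (SE 0.35, edgeR FDR 0.000233). SST, the gene of the peptide itself, went from 2.65 ± 0.182 to 4.80 ± 0.593 CPM (SD, n = 3), or 0.86 on the log2 scale (edgeR FDR 0.00283). Of the 6 other genes listed for this system, 3 were counted highly enough to be tested, and CORT, the cortistatin gene, did not pass (log2 fold change 0.00067, edgeR FDR 1.00). SSTR1, SSTR4 and SSTR5 were not tested, with at most 4, 0 and 2 counts in a library.

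**Figure D3:**
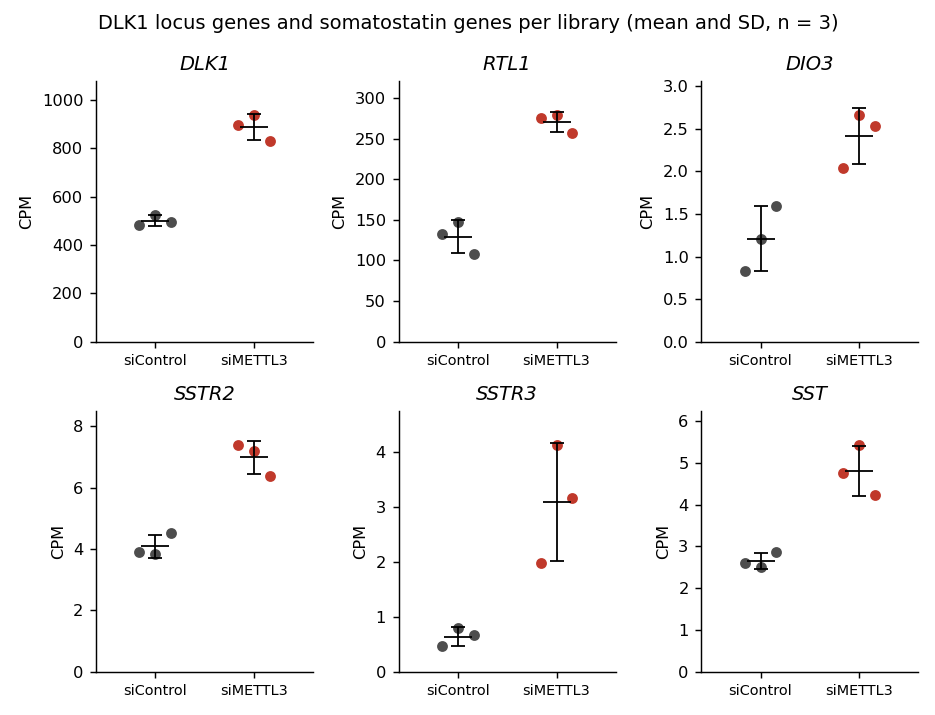
Expression (CPM, vertical axes from 0) of the DLK1 locus genes in the upper row and of SSTR2, SSTR3 and SST in the lower row, per library with mean and SD. In each of the 6 genes the siMETTL3 points lie above the siControl points, and SSTR3 goes from 0.642 to 3.10 CPM.

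NECTIN2 rose, whereas PVR did not pass the test. NECTIN2 (chr19:44846175-44889223) and PVR (chr19:44643798-44666162) lie 180 kb apart on the plus strand, and their proteins share the receptors CD226 and TIGIT, with NECTIN2 also bound by PVRIG. NECTIN2 was measured at 12.8, 11.9 and 8.43 CPM in siControl and at 18.8, 18.7 and 15.3 CPM in siMETTL3. The groups did not overlap, although siControl replicate 3 was well below its group. The rise was 1.58-fold (log2 fold change 0.66, SE 0.15, edgeR FDR 0.00309). Leaving out siControl replicate 3 gave 0.51 on the log2 scale (edgeR FDR 0.00105).

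PVR was measured at 26.4, 24.5 and 21.4 CPM in siControl and at 21.7, 24.7 and 23.4 CPM in siMETTL3, so that the groups overlapped. Its log2 fold change was -0.057 with a 95% interval of -0.27 to 0.15 (edgeR FDR 0.686), and it was 0.013 without siControl replicate 1. Part of the PVR span, 17.4%, is shared with CEACAM19, and how many counts come from there was not tested. The ratio of NECTIN2 to PVR does not depend on library scaling. It was 0.486, 0.484 and 0.393 in siControl and 0.866, 0.757 and 0.654 in siMETTL3, with no overlap. On the log2 scale it was higher by 0.74 in siMETTL3 (exact permutation test, two-sided, p = 0.10, the smallest that 3 against 3 libraries allow).

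Among the other nectins and nectin-like genes, 1 of 7 tested rose, 1 fell and 5 did not pass, with a median log2 fold change of 0.088. The share called was 28.6%, beside 37.8% of all tested genes. NECTIN1, an adhesion protein of the same family, had 44.5, 40.0 and 29.7 CPM in siControl and 82.7, 86.4 and 83.6 CPM in siMETTL3. It rose by 1.14 on the log2 scale (SE 0.11, edgeR FDR 2.51e-05), and by 0.99 without siControl replicate 3. CADM2, a synaptic adhesion gene, fell (log2 fold change -0.51, edgeR FDR 0.0130), with a value of -0.34 without siControl replicate 3, where it was highest. NECTIN3 did not pass (log2 fold change -0.24, edgeR FDR 0.0602). The calls in this list depended on the setting, with 1 or 2 higher and 1 or 2 lower: there were 2 lower with DESeq2, on genes without overlaps and without siControl replicates 1 or 2, and 2 higher with total-count scaling and without siControl replicate 3.

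CD47 fell by a modest amount that exceeded the spread between libraries. The gene (chr3:108043091-108091862, minus strand) was measured at 95.5, 101 and 103 CPM in siControl and at 79.6, 75.9 and 81.1 CPM in siMETTL3. All siMETTL3 libraries lay below all siControl libraries. The remaining level was 78.9% of control, with a 95% interval of the fold of 0.722 to 0.862 (log2 fold change -0.34, SE 0.060, edgeR FDR 0.000553).

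None of the other tested genes listed for the CD47 axis and phagocytosis was called lower. Of these 7 genes, 1 rose and 6 did not pass, where 18.6% of all tested genes were higher and 19.2% lower. Their median log2 fold change was 0.0033. The gene that rose was SIRPA, the receptor of CD47, at 12.7 ± 1.27 CPM in siControl and 16.0 ± 1.21 CPM in siMETTL3 (SD, n = 3; log2 fold change 0.33, edgeR FDR 0.0342). The call was lost on leaving out siControl replicate 3 (edgeR FDR 0.0838) or siMETTL3 replicates 1 or 2 (edgeR FDR 0.142 and 0.101). QPCTL, the enzyme that modifies the CD47 amino terminus for binding, did not pass (log2 fold change -0.10, edgeR FDR 0.562). CALR, a signal for phagocytosis, had a value of 0.026 (edgeR FDR 0.748).

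The 250 bases before the transcription start as RefSeq places it are shown for genes that moved in either direction. That start differs from the end of the counted span in several genes: the window lies inside the span for CD47 and partly inside it for NECTIN2. RefSeq promoters (GRCh38.p14) were matched for 7 of the 8 genes, all but DLK1, with the first listed start for CD276. Both strands were searched for the E-box bound by MYCN (CACGTG), the cyclic AMP response element (TGACGTCA), the TATA box (TATAAA), the CCAAT box (CCAAT) and the GC box (GGGCGG). Matches of different motifs were counted separately and could overlap. Shown are NECTIN2 and SSTR2, which rose, and CD47, which fell, with each GC box in capitals; GC boxes may adjoin or overlap each other.
NECTIN2 promoter, chr19:44846047-44846296 (+): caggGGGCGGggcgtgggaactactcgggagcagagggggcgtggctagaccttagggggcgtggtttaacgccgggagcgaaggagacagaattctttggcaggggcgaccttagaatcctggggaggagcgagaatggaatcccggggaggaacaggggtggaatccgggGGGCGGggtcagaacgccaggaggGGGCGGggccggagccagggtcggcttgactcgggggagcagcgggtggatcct
SSTR2 promoter, chr17:73164760-73165009 (+): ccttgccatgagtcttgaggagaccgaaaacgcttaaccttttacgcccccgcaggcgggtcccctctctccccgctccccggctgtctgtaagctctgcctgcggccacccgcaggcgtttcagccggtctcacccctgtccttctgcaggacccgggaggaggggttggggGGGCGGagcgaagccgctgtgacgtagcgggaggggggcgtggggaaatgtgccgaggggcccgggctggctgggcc
CD47 promoter, chr3:108091032-108091281 (-): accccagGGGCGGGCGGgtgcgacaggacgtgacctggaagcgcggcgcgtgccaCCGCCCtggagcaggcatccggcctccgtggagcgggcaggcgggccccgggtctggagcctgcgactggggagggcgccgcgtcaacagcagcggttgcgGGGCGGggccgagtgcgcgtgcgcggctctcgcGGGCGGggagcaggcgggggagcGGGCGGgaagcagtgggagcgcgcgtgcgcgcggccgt

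NECTIN2 held 3 GC boxes, SSTR2 held 1 and CD47 held 6, and 56.8% of 15085 promoters of the same length hold at least 1. The letters of the E-box, found in 7.86% of promoters, of the cyclic AMP response element (2.34%) and of the TATA box (9.21%) are not in any of the 7 windows. CD276 held 1 CCAAT box and GPC2 held 2, and the other windows, those of NECTIN2, SSTR2 and CD47 included, held none. That motif is found in 34.8% of promoters. The GC content was 67.6% in NECTIN2, 69.2% in SSTR2 and 79.6% in CD47, and the median promoter had 62.4%. CD276 reached 80.8% with 7 GC boxes, and CD274 had 54.8% with 1.

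CD276 and GPC2, targets of antibody and cell therapies in neuroblastoma, did not pass the test. CD276 (chr15:73683966-73714514) had 91.1, 92.0 and 72.8 CPM in siControl and 90.6, 91.5 and 86.7 CPM in siMETTL3. All libraries but siControl replicate 3 lay within a narrow range. The log2 fold change was 0.068 with a 95% interval of -0.11 to 0.24 (edgeR FDR 0.550), a fold of 0.929 to 1.18. Without siControl replicate 3 it was -0.032 (edgeR FDR 0.704).

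GPC2 (chr7:100169606-100177381, minus strand) had 19.8, 20.0 and 18.2 CPM in siControl and 16.6, 18.0 and 16.9 CPM in siMETTL3. The groups did not overlap, but only just, and the difference did not pass the test. The log2 fold change was -0.17 with a 95% interval of -0.38 to 0.027 (edgeR FDR 0.163), and -0.22 without siControl replicate 3 (edgeR FDR 0.0974).

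Genes of other glypicans and of heparan sulfate, the sugar chain that glypicans carry, changed in both directions. Of 23 tested, 7 rose, 4 fell and 12 did not pass, with a median log2 fold change of -0.044. Of the list, 47.8% was called, beside 37.8% of all tested genes. HS6ST1, a heparan sulfate 6-O-sulfotransferase, went from 33.6 ± 5.34 to 65.4 ± 3.67 CPM (SD, n = 3), or 0.95 on the log2 scale (edgeR FDR 1.12e-05). The proteoglycan gene SDC3 rose by 0.59 on the log2 scale (edgeR FDR 0.000711). SDC1, another syndecan, had a log2 fold change of -0.29 (edgeR FDR 0.00352), and the glypican gene GPC5 one of -0.44 (edgeR FDR 0.00824). Without siControl replicate 3, the log2 fold change was 0.85 for HS6ST1, 0.47 for SDC3 and -0.30 for GPC5.

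CD274, which encodes PD-L1, was near the limit of what the libraries could count. The gene (chr9:5450503-5470566) had 12, 22 and 12 counts in siControl and 15, 6 and 8 counts in siMETTL3, or 0.556, 1.10 and 0.796 CPM against 0.729, 0.275 and 0.389 CPM. The groups overlapped. The log2 fold change was -0.81 with a 95% interval of -1.83 to 0.21 (edgeR FDR 0.203), an interval of the fold from 0.281 to 1.16, and no difference was detectable at this depth. It was -1.28 without siMETTL3 replicate 1, and -0.51 without siControl replicate 2.

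Of 15 listed genes known to act on PD-L1, 13 were counted highly enough to be tested. Of these, 1 rose, 3 fell and 9 did not pass, with a median log2 fold change of -0.082. The share called was 30.8%, beside 37.8% of all tested genes. Over the 16 other fits, 1 to 3 genes of this list were higher and 1 to 3 lower. STAT3 went from 88.6 ± 4.59 to 114.8 ± 2.21 CPM (SD, n = 3; log2 fold change 0.37, edgeR FDR 0.000269). CMTM4, which stabilises PD-L1, had a log2 fold change of -0.21 (edgeR FDR 0.0313). Its call was lost with total-count scaling (edgeR FDR 0.0608) and on leaving out siControl replicate 2 (edgeR FDR 0.122) or siMETTL3 replicates 2 or 3 (edgeR FDR 0.0603 and 0.151).

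The level of the 8 genes per length covered a wide range. Because reads were counted over the whole gene, the level was first set per kb of gene span. In siControl the order was DLK1 (39.9 ± 1.77 CPM per kb), CD276 (2.79 ± 0.354), GPC2 (2.49 ± 0.130), CD47 (2.05 ± 0.0834), PVR (1.08 ± 0.113), SSTR2 (0.351 ± 0.0318), NECTIN2 (0.256 ± 0.0538) and CD274 (0.0407 ± 0.0136; all SD, n = 3). The SD ranges of CD276 and GPC2 overlap, and those of the other neighbours in this order do not. The order was the same in siMETTL3.

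The order of the middle genes depends on the length used. Per kb of the canonical transcript, DLK1 (107 ± 4.76 CPM per kb), CD276 (25.9 ± 3.28) and CD274 (0.225 ± 0.0751; SD, n = 3) stayed first, second and last in siControl. Next came CD47 (18.9 ± 0.769), before GPC2 (7.60 ± 0.397), PVR (4.16 ± 0.435) and NECTIN2 (4.10 ± 0.861), and SSTR2 was next to last (0.532 ± 0.0481; SD, n = 3). PVR and NECTIN2 did not differ beyond their spread there, and NECTIN2 stood above PVR without siControl replicate 3. In siMETTL3, NECTIN2 (6.54 ± 0.743 CPM per kb of transcript) stood above PVR (4.02 ± 0.258; SD, n = 3). NECTIN2 is the gene most affected, since its transcript is 6.25% of its span, against 66.1% for SSTR2.

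**Figure D4:**
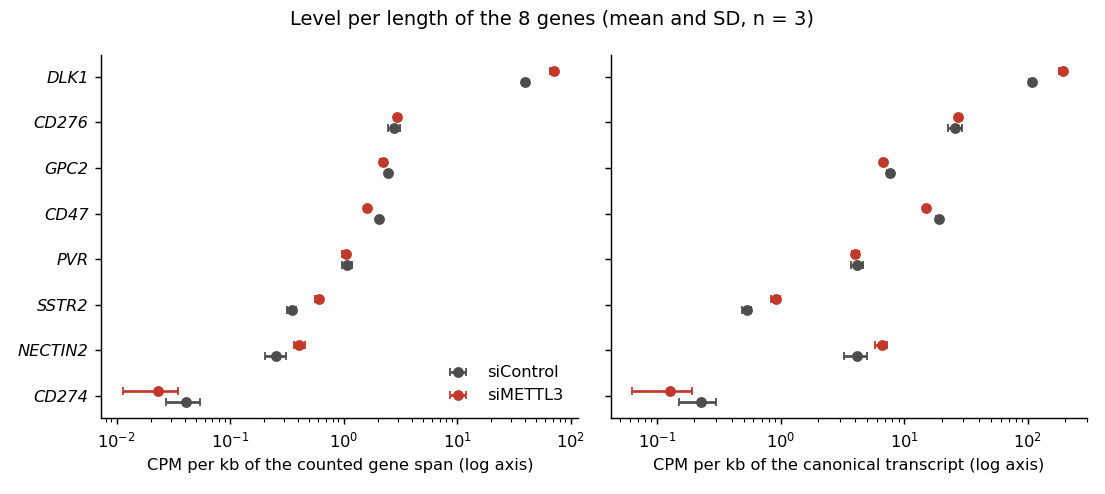
Level of each gene as CPM per kb of gene span on the left and per kb of canonical transcript on the right (log axes, mean and SD over 3 libraries per group). DLK1 is highest and CD274 lowest on both scales. NECTIN2 moves from below SSTR2 to the level of PVR in siControl, and to above PVR in siMETTL3.

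The spread between siControl libraries differed among the genes. The coefficient of variation was 21.0% for NECTIN2, 12.7% for CD276 and 10.4% for PVR, where counting error alone gives 6.84%, 2.47% and 4.66%. This error takes each count as independent. Without a fragment option, mates of a read pair could count separately, which would make the error larger and was not tested. It was 5.23% for GPC2 and 9.04% for SSTR2, close to or under the counting error of 5.22% and 11.4%. CD276, GPC2, PVR and NECTIN2 were all lowest in siControl replicate 3, the library that stood apart, and CD47 and SSTR2 were highest there among the siControl libraries. In siMETTL3 the coefficient of variation of CD276 was 2.84%.

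Of 18 other surface targets of neuroblastoma tested, 5 rose, 2 fell and 11 did not pass (median log2 fold change 0.012). The share called, 38.9%, is close to the 37.8% of all tested genes. EGFR, a growth factor receptor, went from 47.6 ± 2.26 to 90.1 ± 4.21 CPM (SD, n = 3), or 0.92 on the log2 scale (edgeR FDR 2.62e-07). ALK, the receptor kinase mutated in part of neuroblastomas, went from 699 ± 39.1 to 1180 ± 15.3 CPM (SD, n = 3; log2 fold change 0.76, edgeR FDR 6.21e-07). The hyaluronan receptor CD44 went from 20.1 ± 2.52 to 8.43 ± 0.754 CPM (SD, n = 3; log2 fold change -1.24, edgeR FDR 5.13e-06). With each library left out in turn, the log2 fold change of CD44 was -1.32 to -1.14. ROR1, a receptor of the tyrosine kinase family, was lower, by -0.56 on the log2 scale (edgeR FDR 7.70e-05), and by -0.47 without siControl replicate 3. B4GALNT1 and ST8SIA1, enzymes that make the antigen GD2, did not pass (log2 fold changes -0.014 and -0.15).

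Other checkpoint ligands were mostly low. Of 23 listed, 16 were tested, of which 4 rose, 1 fell and 11 did not pass (median log2 fold change 0.15). The share called was 31.25%, beside 37.8% of all tested genes. VTCN1, a B7 family member, went from 0.640 ± 0.0749 to 1.64 ± 0.119 CPM (SD, n = 3; log2 fold change 1.35, edgeR FDR 0.00492). LGALS9, a galectin that binds TIM-3 on T cells, had a log2 fold change of 0.80 (edgeR FDR 0.0185), which was lost on leaving out siMETTL3 replicates 1 or 2 (edgeR FDR 0.0551 and 0.0583). BTN2A1, a butyrophilin, went from 18.5 ± 0.589 to 13.7 ± 0.429 CPM (SD, n = 3; log2 fold change -0.44, edgeR FDR 0.00278). PDCD1LG2, the gene of the second PD-1 ligand, had 3.63 CPM in siControl and 3.01 CPM in siMETTL3 and did not pass (log2 fold change -0.27, edgeR FDR 0.294).

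Of 8 tested ligands of natural killer cells, 1 rose, 2 fell and 5 did not pass (median log2 fold change -0.073). The share called, 37.5%, is near the 37.8% of all tested genes. ULBP1, a ligand of the activating receptor NKG2D, went from 3.98 ± 0.383 to 1.82 ± 0.539 CPM (SD, n = 3; log2 fold change -1.12, edgeR FDR 0.00270). The other calls were small and not stable. NCR3LG1 (log2 fold change 0.33, edgeR FDR 0.0338) was not past the threshold in 4 of 6 fits that left out a library, those without siControl replicate 1 or 2 and siMETTL3 replicate 2 or 3 (edgeR FDR up to 0.126). BAG6 (log2 fold change -0.18, edgeR FDR 0.0383) was not past it in any such fit but the one without siControl replicate 3 (edgeR FDR up to 0.143), nor with upper-quartile or total-count scaling (edgeR FDR 0.0505 and 0.0801).

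Some receptors that bind these ligands on immune cells gave counts in Kelly cells. Of 8 listed, 5 were tested, with 1 higher, 1 lower and 3 not past the threshold (median log2 fold change -0.077). The share called, 40%, is near the 37.8% of all tested genes. PDCD1, the gene of PD-1, had 6 to 12 counts in siControl and 20 to 26 counts in siMETTL3 (log2 fold change 1.31, edgeR FDR 0.0161). The call was lost on leaving out siControl replicate 2 (edgeR FDR 0.0654) or siMETTL3 replicates 1 or 3 (edgeR FDR 0.0662 and 0.0614). PVRIG, which overlaps another gene of the tables, went from 6.21 ± 0.852 to 3.45 ± 0.337 CPM (SD, n = 3; log2 fold change -0.85, edgeR FDR 0.00178). The immune cell marker CD68 was above PDCD1 in the same libraries, at 2.07 CPM in siControl and 1.59 CPM in siMETTL3. The other immune cell markers were too low to be tested, with at most 1 (CD3E) to 14 (ITGAM) counts in a library. The T cell marker CD8A had at most 3. The part of immune cells in these counts was not tested.

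Among 10 neuroblastoma markers, 6 rose, 2 fell and 2 did not pass (median log2 fold change 0.28). The share called was 80%, beside 37.8% of all tested genes. TH and MYCN rose by 1.52 and 0.62 on the log2 scale (edgeR FDR 1.89e-07 and 5.17e-06), and ISL1 and CHGB had log2 fold changes of -1.18 and -0.56 (edgeR FDR 6.06e-08 and 2.42e-05). Of 7 tested stromal, endothelial and Schwann cell markers, 2 rose and 5 did not pass (median log2 fold change 0.62), a share called of 28.6%. The summed level of the list was 97.8 to 113.7 CPM in siControl and 104.7 to 114.6 CPM in siMETTL3. Most of that sum was PDGFRB, at 84.7 CPM in siControl and 82.8 CPM in siMETTL3, and DCN, LUM, FAP, S100B and CDH5 had at most 8 counts in a library. The endothelial marker VWF had a log2 fold change of 0.68 (edgeR FDR 0.00592), while PECAM1, another, did not pass and had one of -0.95 (edgeR FDR 0.143). With each library left out in turn, VWF had a log2 fold change of 0.56 to 0.77. COL1A1 had one of 0.86 (edgeR FDR 0.0200), which was lost on leaving out siControl replicate 2 (0.55, edgeR FDR 0.0708) or siMETTL3 replicates 2 or 3 (edgeR FDR 0.0683 and 0.0805). The part of these cells in the changes of the 8 genes was not tested.

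**Figure D5:**
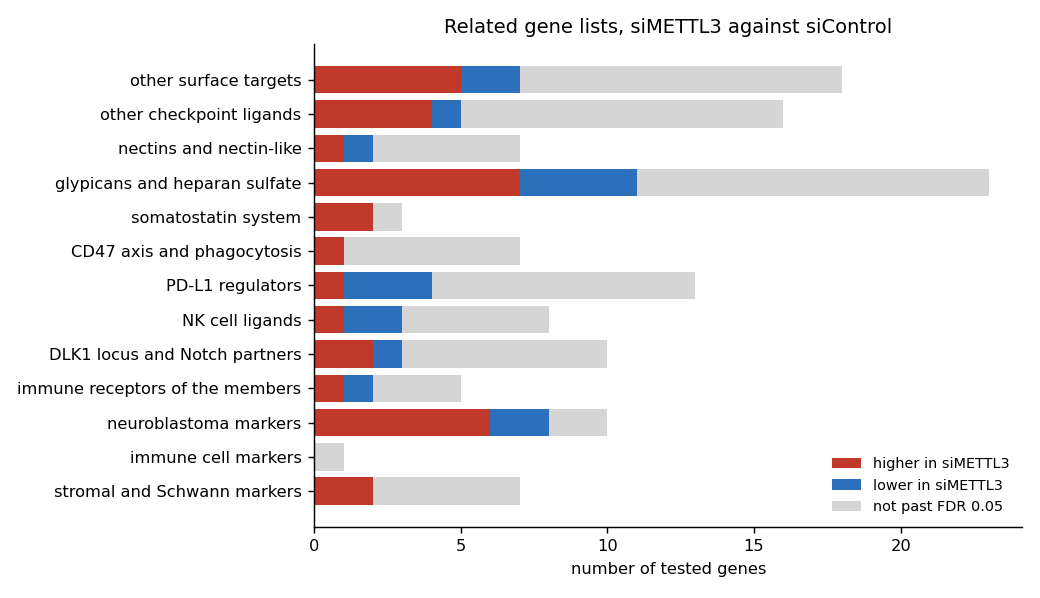
Number of tested genes (horizontal axis) in each related list that were higher, lower or not past an FDR of 0.05 in siMETTL3. In most lists the grey part is the longest. The list of glypicans and heparan sulfate holds the most called genes, 11 of 23, but also the most tested genes. Its share called is 47.8%, beside 37.8% of all tested genes and 80% of the neuroblastoma markers, the highest share of a list.

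The genes near each of the 8 were then counted, within 500 kb on the same chromosome, a window chosen after the values had been seen. Near CD276, which did not pass the test itself, 10 of 12 tested genes were higher and 2 did not pass, where 18.6% of all tested genes were higher. Near SSTR2, 5 of 7 were higher and 2 did not pass. Near DLK1, 3 of 6 were higher, RTL1 together with BEGAIN (log2 fold change 0.93, edgeR FDR 0.0204) and WDR25 (0.67, edgeR FDR 0.00710). Near NECTIN2 and PVR, whose windows overlap, 7 of 24 and 8 of 25 were higher, and 2 were lower in each. NECTIN2 and PVR are each counted as a neighbour of the other, so NECTIN2 is among the 8 higher genes near PVR. Near GPC2, 1 of 35 was higher and 6 were lower, where 19.2% of all tested genes were lower. Near CD47, 2 of 6 were lower. Near CD274, none of 8 passed edgeR's test, and 1 had an unadjusted p under 0.05.

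The gene with the most similar profile was looked up for each of the 8, as the highest Pearson correlation of log2 CPM over the 6 libraries among genes whose average log2 CPM was 3 or more. These values describe 6 points that share library and group, and are the highest among all genes compared. They were FAM104A for DLK1 (r = 0.997), KAT6A for SSTR2 (0.997), ERI3 for NECTIN2 (0.996) and ADH5 for CD47 (1.00). For the genes that did not pass they were STK25 for GPC2 (0.998), RUSC2 for CD276 (0.992), BMX for PVR (0.991) and PSMD13 for CD274 (0.994). FAM104A lies 30.7 kb from SSTR2 and rose by 0.50 on the log2 scale (edgeR FDR 3.60e-05), while ADH5 had a log2 fold change of -0.45 (edgeR FDR 0.000112).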

How the data were processed

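RNA-seq of poly(A) RNA gave 1 table per library. The deposited values are raw counts per gene that the authors made with featureCounts 1.5.3 on protein-coding genes of GENCODE release 33, per the file headers. Reads were counted over whole gene spans, introns included, for every gene they overlap, without strand or fragment options. The submitters' processing notes name FastQC 0.11.5, Trimmomatic 0.36, HISAT2 2.1.0, Subread 1.5.3 and GRCh38. Each of 19033 comparable gene spans overlaps its namesake in GENCODE release 44. Coordinates are those of the tables.

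Groups and replicate numbers came from the sample titles. Genes were filtered with filterByExpr (15311 kept), scaled by TMM and tested with edgeR 4.0.16 in R 4.3.3 (quasi-likelihood F-test, robust, all 6 libraries, no covariate). FDR is Benjamini-Hochberg over all tested genes, and the SE was taken from the log2 fold change and F. The total counts per library, 15430000 to 21565013, make 1 count worth 0.0459 to 0.0663 CPM. The fit was tested on simulated data in which far fewer genes were changed than are called here. Their changes were larger than that of the median called gene, so the test does not cover a comparison such as this. Alternatives were other scalings and filters, DESeq2 1.42.0, limma-voom (limma 3.58.1), non-robust dispersion, a replicate block, each library left out, and genes without overlaps. Replicates differed by more than the sampling noise of independent counts (chi-square per degree of freedom 3.05 to 16.1).

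The 8 genes and 13 related lists were chosen with earlier results of these data known. Named are the 8 genes, METTL3, up to 2 called genes per list and direction with the smallest FDR, and the most correlated gene of each. A gene that this rule names is not reported here. The motifs, the 500 kb window and further genes named with their values (ADAM17, DLL1, JAG2, NECTIN3, QPCTL, CALR, CORT, B4GALNT1, ST8SIA1, PDCD1LG2, PECAM1, BEGAIN and WDR25) were chosen after the values were seen.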

Additional observations from a re-analysis of the deposited data

How the results depend on the processing

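DLK1, SSTR2, NECTIN2, CD47 and METTL3 kept their direction and their call under every alternative that gave a value for them. Leaving out each library in turn gave log2 fold changes of 0.78 to 0.87 for DLK1, 0.74 to 0.85 for SSTR2, 0.51 to 0.78 for NECTIN2, -0.37 to -0.32 for CD47, -0.22 to -0.15 for GPC2, -1.28 to -0.51 for CD274 and -0.74 to -0.69 for METTL3. CD276 went from -0.032 to 0.13 and PVR from -0.13 to 0.013, each with 1 change of sign (without siControl replicate 3 and replicate 1), and the cause was not tested. The count of called genes fell to 1852 higher and 1897 lower on genes without overlaps, where fewer genes are tested (9517, of which 39.4% were called), and PVR and METTL3 gave no value. With each library left out, 2091 to 3178 genes were higher and 2119 to 3216 lower. The 171 related genes, of which 128 were tested, gave 33 higher and 17 lower calls. Over all tested genes, 18.6% were higher and 19.2% lower. When a library was left out, the related genes gave 24 to 36 higher and 13 to 22 lower calls. Per kb of transcript, 4 of the 8 genes in siControl and 3 in siMETTL3 kept their rank by level, because the lengths differ. Per kb of gene span, no library left out changed a rank. The NECTIN2 to PVR difference went from 0.64 to 0.84. Requiring 10 counts per library removed CD274.

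Equal replicate numbers were at most a weak mark of paired libraries (correlation of deviations 0.040, 0.049 and 0.067 for equal numbers, all under 0.1). Different numbers gave -0.064 to 0.026, so that every library correlated best with its own number, a hint from the data and not from the design. With the replicate block, 6166 genes were called against 5786, and DLK1 had a log2 fold change of 0.83, SSTR2 0.78, NECTIN2 0.68 and CD47 -0.34. It changed no call of the 8 genes. The related genes went to 37 higher and 20 lower, with 4 higher and 2 lower in the DLK1 locus and Notch list, 2 and 2 among the nectins, and 2 lower among the immune receptors. Low counts limit CD274 and, less so, SSTR2.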
